A study of Mus musculus with 16 samples.

Results

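Oosp1, Omt2a and Omt2b are 3 mouse genes whose RNA is found in oocytes, and they were taken by name from a table of 25965 genes; all 3 are listed there once. The name Oosp1 stands for oocyte secreted protein 1, and RefSeq describes Omt2a and Omt2b as oocyte maturation alpha and beta. RNA was sequenced from wild-type C57BL/6 oocytes (C57BL/6Babr in the methods) sorted by diameter into classes of 10-30 μm, 40-45 μm, 50-55 μm and 60-65 μm, with 2 libraries (A and B) per class and 1 library of germinal vesicle (GV) oocytes, the fully grown stage before meiosis resumes. According to the methods the oocytes came from mice of postnatal days 5 to 7, 7 to 12, 9 to 14 and 13 to 16 for the 4 classes and day 20 for GV, although the supplementary list of RNA libraries gives other ranges for all but the smallest class. By either source, diameter and age changed together. DNA methylation was measured by PBAT, a whole-genome bisulphite method, in 1 library of 60-65 μm oocytes, and by RRBS, which samples CpG-rich MspI fragments, in 6 libraries, 2 for each of the 4 classes but the smallest. Each library was a pool of hand-picked oocytes, no treatment was given, and the labels do not say whether the libraries of a class came from separate mice, so p-values measure the spread between these libraries.

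An oocyte grows while arrested in the first meiotic prophase, and it stores RNA and protein on which the egg and early embryo later draw. Much of what it makes is exported, either into the zona pellucida, the glycoprotein coat, or as signals to the granulosa cells around it. OOSP proteins are small proteins with a signal peptide, related to the placental protein PLAC1 and to part of the zona proteins. DNA methylation is laid down afresh during this growth, mainly across transcribed gene bodies, whereas gene starts mostly stay unmethylated. Secretion was not measured in these samples, and no role is assigned here to Omt2a or Omt2b beyond their names.

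The oocyte identity of the RNA was clear in its markers. The summed level of 6 oocyte markers (Ddx4, Dazl, Zp3, Gdf9, Npm2 and Nlrp5) lay between 1624 and 2444 RPKM (reads scaled to exon length and library size) in the 9 libraries. The sum of 9 granulosa markers went from 0.802 and 0.811 RPKM at 10-30 μm to 2.59 and 3.04 RPKM at 60-65 μm and 4.12 RPKM in GV, of which Cyp19a1, the aromatase, reached 2.53 RPKM. The sum of 5 blood and endothelial markers went from 0.629 and 0.690 to 4.43 and 4.80 RPKM and 5.76 RPKM in GV, nearly all of it Pecam1 with up to 5.68 RPKM, while Ptprc and Cdh5 stayed at or below 0.0101 RPKM. The sum of 6 stromal and theca markers was highest at 10-30 μm, with 2.02 and 2.76 RPKM. The granulosa and the blood and endothelial sums went up with size, as the members did, and the stromal and oocyte sums did not, with 0.800 and 0.840 RPKM for stroma and 1845 and 1869 RPKM for oocyte markers at 60-65 μm. Their part in the results was not tested.

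Omt2a and Omt2b lie on chromosome 9 (GRCm38) and point away from each other. Omt2a occupies chr9:78311972-78314797 on the minus strand and Omt2b chr9:78328030-78329620 on the plus strand, which leaves 13232 bases between their starts, with the pseudogene Gm8074 in between. Oosp1 occupies chr19:11667460-11691150 on the minus strand, 23691 bases, against 2826 for Omt2a and 1591 for Omt2b. On one side of Oosp1, 6901 bases from its end and on the same strand, lies its relative Oosp2 (listed as Plac1l), and on the other side, 5905 bases from its start and pointing away, lies Oosp3 (listed as Gm97).

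The Omt2 genes share their 3′ coding ends base for base, and this identity breaks off inside the second exon. Their second exons, both coding and both 171 bases long, are printed here because they hold the place where identity begins; capitals mark the bases that differ.
Omt2a exon 2, chr9:78312905-78313075 (minus strand): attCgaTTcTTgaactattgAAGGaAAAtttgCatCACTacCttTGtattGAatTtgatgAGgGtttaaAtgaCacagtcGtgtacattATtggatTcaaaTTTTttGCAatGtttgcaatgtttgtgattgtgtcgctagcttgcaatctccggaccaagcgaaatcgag
Omt2b exon 2, chr9:78328522-78328692 (plus strand): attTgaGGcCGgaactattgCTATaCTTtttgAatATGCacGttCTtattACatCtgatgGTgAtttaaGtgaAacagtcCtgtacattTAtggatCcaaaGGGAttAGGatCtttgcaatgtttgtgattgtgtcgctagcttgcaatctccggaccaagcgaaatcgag
The exons differed at 40 of 171 bases, all of them before the last 58, which were the same in both. The coding part of the last exon, 62 bases in each gene, was identical, and the spliced transcripts shared an unbroken run of 260 bases. In the genes themselves, stretches of at least 100 identical bases covered 964 of the 1591 bases of Omt2b (60.6%) and 965 of the 2826 bases of Omt2a (34.1%). One of these stretches took in the first 108 bases of Omt2b. The 202 identical bases at the start of the last exon occurred at 2 places in GRCm38, these genes.

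This identity bears on the RNA values. Reads were 100 bases long at each end, and 203 of 636 windows of 100 bases in the RefSeq transcript of Omt2b (31.9%) were also found, letter for letter, in the longer transcript of Omt2a. Seen from Omt2a, these were 203 of 1132 windows (17.9%) of its longer transcript, and 194 of 511 windows (38.0%) of its shorter one were shared with Omt2b. TopHat was run so that it kept 1 alignment per read, hence a read from a shared stretch could have been given to either gene unless its mate settled it. The separate levels of Omt2a and Omt2b are therefore uncertain, and the sum of their reads is less so.

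All 3 members were already abundant in the smallest oocytes, and all were listed higher than there in every larger class and in GV. The share of all genes with this order was not counted, and shares for pairs of classes are given with the tests below. For Oosp1 the levels were 113 and 91.3 RPKM at 10-30 μm (libraries A and B), 194 and 139 RPKM at 40-45 μm, 213 and 163 RPKM at 50-55 μm, 228 and 215 RPKM at 60-65 μm, and 231 RPKM in GV. Libraries of the 10-30 μm class were the lowest and did not overlap with any larger class, whereas 40-45 and 50-55 μm overlapped. Among all genes of a library, Oosp1 stood at rank 77 and 95 at 10-30 μm, at rank 28 and 32 at 60-65 μm, and at rank 27 in GV.

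Omt2b had 76.0 and 67.2 RPKM at 10-30 μm, 91.3 and 83.1 RPKM at 40-45 μm, 92.8 and 90.3 RPKM at 50-55 μm, 104 and 96.2 RPKM at 60-65 μm, and 97.9 RPKM in GV. Its 10-30 μm libraries lay below all others and its 60-65 μm libraries above the other growing classes, with overlap between 40-45 and 50-55 μm. Omt2a was the lowest of the members per kilobase, with 23.0 and 22.2 RPKM at 10-30 μm, 31.1 and 28.5 RPKM at 40-45 μm, 31.3 and 31.0 RPKM at 50-55 μm, 38.2 and 32.7 RPKM at 60-65 μm, and 36.8 RPKM in GV. The same classes overlapped in it as in Omt2b. The order per kilobase, Oosp1 above Omt2b above Omt2a, held in each of the 9 libraries, and the ranges of RPKM of the genes over the 9 libraries overlapped between Oosp1 and Omt2b but not between Omt2b and Omt2a.

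**Figure D1:**
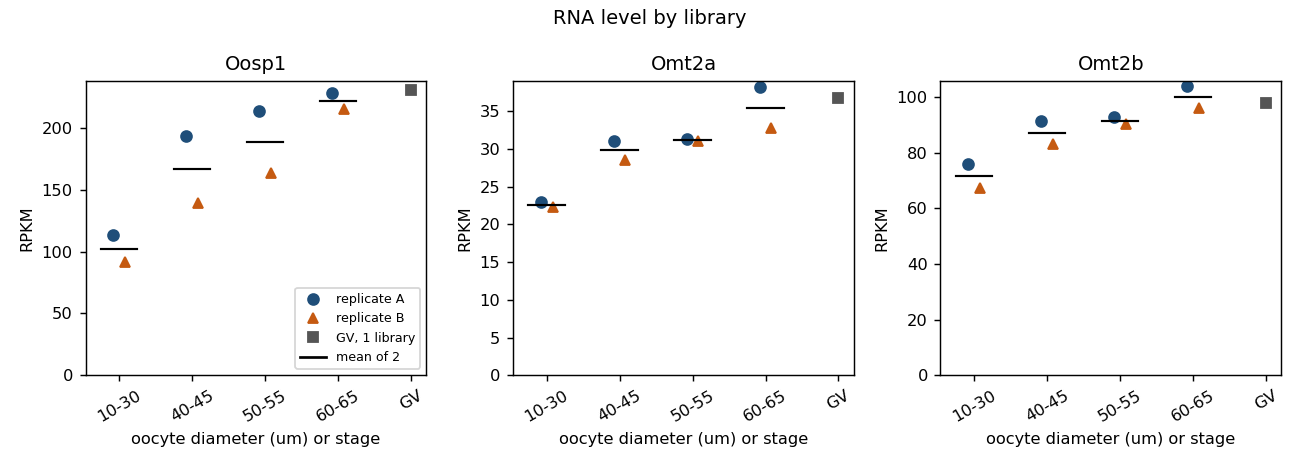
RPKM of Oosp1, Omt2a and Omt2b (vertical axes from 0, a scale of its own for each gene) by size class, with circles for library A, triangles for library B, a bar for the mean of the 2 libraries and a square for the single GV library. Oosp1 goes from 91.3 to 113 RPKM at 10-30 μm to 215 to 228 RPKM at 60-65 μm. In all 3 panels the 10-30 μm libraries are the lowest, an order whose share among all genes was not counted.

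Between 10-30 and 60-65 μm all 3 members rose, by 2.18-fold for Oosp1 (log2 change 1.12, SE 0.21, limma adjusted p = 0.00195), 1.57-fold for Omt2a (0.65, SE 0.11, adjusted p = 0.00134) and 1.40-fold for Omt2b (0.49, SE 0.12, adjusted p = 0.00876). In that comparison 31.7% of 10518 genes tested were called higher, 31.6% lower and 63.3% in either direction, so a call by itself is common, and both 60-65 μm libraries lay above both 10-30 μm libraries in 40.2% of genes as well as in all 3 members. Class means were 102 ± 15.6 and 221 ± 9.02 RPKM for Oosp1, 22.6 ± 0.508 and 35.5 ± 3.86 RPKM for Omt2a, and 71.6 ± 6.27 and 100.1 ± 5.49 RPKM for Omt2b (SD, n = 2 each). Without the 60-65 μm library A the rise of Omt2b was no longer called (limma adjusted p = 0.0628).

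The first step, from 10-30 to 40-45 μm, accounted for 68.6% of the whole log2 change of Oosp1, 73.9% of that of Omt2a and 75.2% of that of Omt2b. These shares hung on the 40-45 μm libraries: they were 44.5, 59.2 and 54.2% without library A of that class and 92.7, 88.5 and 96.1% without library B. In this step Oosp1 rose 1.71-fold (log2 change 0.77, SE 0.21, limma adjusted p = 0.0341) and Omt2a 1.39-fold (0.48, SE 0.11, adjusted p = 0.0204), while Omt2b had a log2 change of 0.37 (SE 0.12) with an adjusted p of 0.0664. Here 13.8% of the genes tested were called higher, 9.41% lower and 23.2% in either direction. In all 3 members both 40-45 μm libraries lay above both 10-30 μm libraries in RPKM, as did 22.4% of the genes tested. These calls hung on single libraries or on the filter: the limma adjusted p of Oosp1 was 0.117 without 10-30 μm library B, 0.177 without 40-45 μm library A, 0.0609 and 0.0613 without 60-65 μm library A or B, and 0.0894 with no filter on low values, and that of Omt2a was 0.0578 without 10-30 μm library B and 0.116 without 40-45 μm library A. Omt2b gained a call without 10-30 μm library A (limma adjusted p = 0.0463) and when libraries were scaled on all genes above 0 (0.0275), a scaling tried first and set aside after both results had been seen.

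In the fit used here, without the letters A and B as a term, no later step passed the threshold for a member. From 40-45 to 60-65 μm the log2 change was 0.35 (SE 0.21, limma adjusted p = 0.222) for Oosp1, 0.17 (SE 0.11, adjusted p = 0.270) for Omt2a and 0.12 (SE 0.12, adjusted p = 0.469) for Omt2b, with a value for Oosp1 of 0.08 without 40-45 μm library B and 0.62 without library A. In this comparison 17.9% of genes were called higher, 19.5% lower and 37.4% in either direction. Both 60-65 μm libraries lay above both 40-45 μm libraries in all 3 members, which was also so for 41.9% of the genes tested. From 40-45 to 50-55 μm the log2 changes of the members were between 0.02 and 0.14, and turned to -0.12 for Oosp1 and -0.07 for both Omt2 genes without 40-45 μm library B, and to -0.06 for Oosp1 without 50-55 μm library A. In that step 5.21% of genes were called higher, 3.55% lower and 8.76% in either direction. The libraries of these classes overlapped in all 3 members, whereas both 50-55 μm libraries lay above both 40-45 μm libraries in 33.0% of genes. From 50-55 to 60-65 μm the members' log2 changes were between 0.09 and 0.21 without overlap in RPKM, as in 32.0% of genes. In that last step limma called 0 genes, or 0.0%, and 1434 had an unadjusted p under 0.05. The GV level divided by the mean of the 60-65 μm libraries was 1.04 for Oosp1, 1.04 for Omt2a and 0.978 for Omt2b, next to a median of 0.981 and quartiles of 0.875 and 1.09 over 9855 genes with at least 0.5 RPKM in both 60-65 μm libraries. The single GV library allowed no test. An RPKM is a share of a library's reads, so that fewer expressing cells and less RNA per cell cannot be told apart, and a change in the total RNA of an oocyte would not be seen.

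In the 3 smaller classes the libraries of a class differed more in Oosp1 than in the other members. Library A was above library B by 1.24-fold at 10-30 μm, 1.39-fold at 40-45 μm and 1.31-fold at 50-55 μm, but only by 1.06-fold at 60-65 μm. In Omt2a and Omt2b the same ratio lay between 1.01 and 1.17. Oosp3, next to Oosp1, had 63.7 and 39.3 RPKM in libraries A and B at 40-45 μm and 90.5 and 68.3 RPKM at 50-55 μm, and Oosp2 had 53.1 and 41.5 RPKM and then 53.5 and 43.8 RPKM. Zp1, which encodes a zona protein, was the other way round, with 283 and 359 RPKM at 40-45 μm and 278 and 309 RPKM at 50-55 μm. This difference between libraries is of the size of the later steps of Oosp1.

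Within a library the members can be set against each other without any scaling between libraries. The ratio of Oosp1 to Omt2b was 1.49 and 1.36 at 10-30 μm, 2.12 and 1.68 at 40-45 μm, 2.30 and 1.81 at 50-55 μm, 2.19 and 2.24 at 60-65 μm and 2.36 in GV. It was lowest at 10-30 μm in both libraries. Oosp1 to Omt2a went from 4.94 and 4.11 at 10-30 μm through 6.23 and 4.88 at 40-45 μm and 6.82 and 5.27 at 50-55 μm to 5.97 and 6.57 at 60-65 μm, with 6.27 in GV, so that the 10-30 μm libraries overlapped those of 40-45 μm and lay below the larger classes. Omt2b to Omt2a was the steadiest ratio, with 3.31 and 3.02 at 10-30 μm, 2.94 and 2.91 at 40-45 μm, 2.97 and 2.91 at 50-55 μm, 2.72 and 2.94 at 60-65 μm and 2.66 in GV. Reads from the stretches that these genes share could have been given to either, and their part in this ratio was not tested.

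None of these ratios passed an exact permutation test of the F statistic over the 8 libraries of growing oocytes (2520 assignments to 4 classes of 2; the smallest p it can give is 0.00952). The exact permutation p was 0.133 for Oosp1 to Omt2b (adjusted over the 3 ratios 0.2), 0.0857 for Omt2b to Omt2a (adjusted 0.2) and 0.276 for Oosp1 to Omt2a (adjusted 0.276). The log2 ratio at 60-65 μm minus that at 10-30 μm was 0.64, -0.16 and 0.48 in the same order. Leaving out 1 library moved it between 0.57 and 0.70, -0.23 and -0.09, and 0.34 and 0.61. The F statistic asks for any difference among the 4 classes, and the difference between 10-30 and 60-65 μm was not tested on its own. In both ratios with Oosp1 the 10-30 μm libraries lay below those of 60-65 μm.

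**Figure D2:**
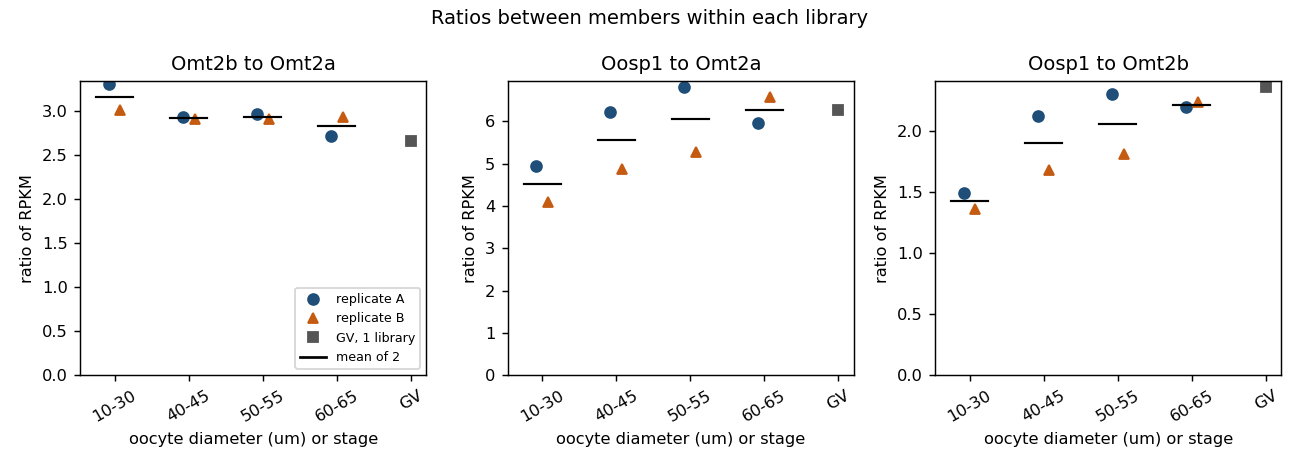
Ratio of RPKM between members within each library (vertical axes from 0), with circles for library A, triangles for library B, a bar for their mean and a square for GV. The Omt2b to Omt2a ratio stays between 2.66 and 3.31 in the 9 libraries, and the Oosp1 to Omt2b ratio is below 1.5 only at 10-30 μm.

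In reads rather than RPKM the Omt2 genes were closer. The shortest exon length that made all 9 values of a gene whole reads, within 0.05 of a read, was 972 bases for Oosp1, 1466 for Omt2a and 735 for Omt2b. With it, 10956 to 44491 reads per library lay behind Oosp1, 3344 to 10696 behind Omt2a and 5554 to 14271 behind Omt2b. The RefSeq exons cover 873, 1332 and 735 bases. The length found for Omt2a is also longer than either RefSeq transcript (1231 and 610 bases). Reads per exon are not known, so how its RPKM would change with the shorter transcript alone cannot be told. Omt2b had 1.66 and 1.51 times the reads of Omt2a at 10-30 μm and 1.37 and 1.47 times at 60-65 μm. Their summed reads, which do not depend on which copy a shared read was given to, came to 89.5 and 82.0 per 1000000 library reads at 10-30 μm, 113 and 103 at 40-45 μm, 114 and 112 at 50-55 μm, 132 and 119 at 60-65 μm and 126 in GV. The sum was thus lowest in the 10-30 μm libraries and highest in the 60-65 μm ones among growing oocytes, as each gene on its own.

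Both relatives of Oosp1 in its cluster were called higher from 10-30 to 60-65 μm, as were 31.7% of all genes tested. With Oosp1 itself, 3 of 3 tested genes of the OOSP and PLAC1 list (Oosp1, Oosp2, Oosp3 and Plac1) were called, and the median log2 change of the list, 1.12, is the value of Oosp1, beside 0.00 over all genes tested. Oosp3 went from 20.2 ± 2.81 to 106 ± 3.21 RPKM (SD, n = 2 each), a 5.26-fold rise (log2 change 2.39, SE 0.25, limma adjusted p = 7.8e-05), and reached 119 RPKM in GV. From 40-45 to 60-65 μm it rose from 51.5 ± 17.3 RPKM (SD, n = 2; limma adjusted p = 0.0151), the 1 call of the list in that comparison. There 17.9% of all genes tested were called higher. Oosp2 rose 1.55-fold, from 32.7 ± 2.75 to 50.4 ± 1.57 RPKM (limma adjusted p = 0.0103), and had a log2 change of 0.02 (SE 0.17) after 40-45 μm. Plac1, the placental relative, stayed at or below 0.166 RPKM and was not tested.

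Other exported oocyte products are given beside the shares of all genes called from 10-30 to 60-65 μm, 31.7% higher and 31.6% lower. All 5 oocyte-secreted signals were called higher from 10-30 to 60-65 μm, with a median log2 change of 1.06, under each of 4 scalings. From 10-30 to 40-45 μm 5 of 5 were called higher too (13.8% of all genes), but 2 of 5 with values as deposited. Bmp15, a TGF-beta family ligand that acts on granulosa cells, went from 66.8 ± 0.490 to 215 ± 2.88 RPKM, and its partner Gdf9 from 434 ± 21.2 to 554 ± 36.2 RPKM (SD, n = 2 each). Fgf8, a fibroblast growth factor, had a log2 change of 1.46, Rspo2, an enhancer of Wnt signalling, of 1.06 and Bmp6 of 0.80. Of the 4 genes of the zona list 0 were called higher and 2 lower from 10-30 to 60-65 μm, Zp2 (log2 change -0.66, limma adjusted p = 0.00221) and Zp3 (-0.37, adjusted p = 0.0475), the latter not with values as deposited or with scaling on all genes above 0. Zp1 (0.05) and Astl (0.01), the protease that cleaves ZP2 after fertilisation, did not pass the test. The members' log2 changes of 0.49 to 1.12 lay within the range of the 5 signals, 0.36 to 1.69.

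Of 7 transcription factors of the early oocyte, 0 were called higher over growth (31.7% of all genes) and 4 lower (31.6%), with a median log2 change of -1.11 beside 0.00 over all genes tested. Sohlh1 went from 47.3 ± 3.31 to 1.45 ± 0.404 RPKM (SD, n = 2 each), Figla from 48.9 ± 5.44 to 12.1 ± 0.711 RPKM, Sohlh2 fell by 2.55 and Tbpl2 by 1.11 on the log2 scale. Nobox (0.06), Lhx8 (-0.10) and Taf4b (0.16) did not pass the test, with Nobox between 44.4 and 66.3 RPKM in the 9 libraries.

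**Figure D3:**
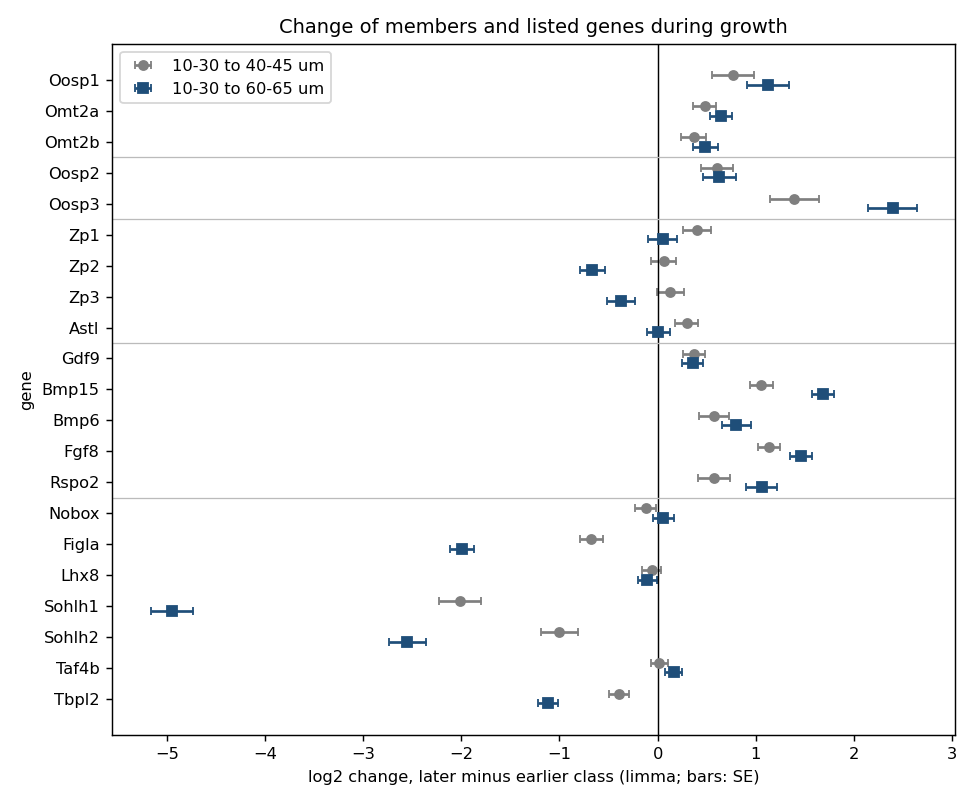
Log2 change (horizontal axis, later minus earlier class, limma on log2(RPKM + 0.1), bars for the SE) from 10-30 to 40-45 μm (circles) and to 60-65 μm (squares) for the members and 4 lists separated by grey lines (OOSP family, zona and protease, secreted signals, transcription factors). The 3 members lie right of 0 at both times, between 0.37 and 1.12, and Sohlh1 lies farthest left at -4.95.

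The genes most like each member, by the smallest root mean square difference over the 9 libraries of log2(RPKM + 0.1) after taking out each gene's mean, were not the members' relatives. Among 1862 genes with a mean of at least 10 RPKM, Oosp1 was most like Plac8 (difference 0.0753, Pearson r 0.995 as a description), Rgs2, a regulator of G-protein signalling, Bcl2l10, a BCL2 relative, and Rfpl4, an oocyte RING finger gene, with differences up to 0.113. Oosp2 stood at place 75 for Oosp1 (difference 0.196) and Oosp3 at place 1046 (0.507). Omt2a was most like Hmgcs1, an enzyme of cholesterol synthesis (0.0585), followed by Rhd, Maea, Tubb5 and Gadd45gip1, and Omt2b stood at place 10 (0.0839). Omt2b was most like Ruvbl2, an AAA ATPase (0.0462), followed by Gpr180, Rnaseh1, E130306D19Rik and Asgr2, with Omt2a at place 35. Reads from stretches that Omt2a and Omt2b share could have been given to either gene, which bears on both of these places. All these points share their 9 libraries, and many genes move in the same way with size.

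Neighbours of the members were called in both directions, with too few tested to set them apart from all genes. Of the 11 genes nearest the Omt2 pair 6 were tested, and over growth 2 were called higher (31.7% of all genes) and 3 lower (31.6%). Gm10639 went to 1.02 ± 0.0141 RPKM at 60-65 μm and Gsta2, whose end lies 1398 bases beyond that of Omt2b, to 0.868 ± 0.0615 RPKM, both far below the pair. Gsta4, a glutathione transferase, fell from 65.2 ± 13.9 to 21.8 ± 1.68 RPKM, Ooep, of the subcortical maternal complex, from 210 ± 18.4 to 131 ± 0.663 RPKM, and Fbxo9 by 0.79 on the log2 scale (SD, n = 2 each). Dppa5a stayed at 210 ± 20.6 and 204 ± 17.4 RPKM (limma adjusted p = 0.839). Those not tested reached at most 0.316 RPKM. Of the 10 neighbours of Oosp1 5 were tested, with 3 called higher and 1 lower over growth. Apart from Oosp2 and Oosp3, Ms4a6d rose to 0.841 ± 0.113 RPKM, Stx3 fell by 0.48 on the log2 scale, and Mrpl16 had a log2 change of 0.02. The other 5 reached at most 0.168 RPKM.

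Upstream sequence of the members is shown because PBAT calls bear on it; capitals mark CpG dinucleotides, and letters are those of RefSeq for GRCm38.p6, read 5′ to 3′ on the strand of the gene. For Oosp1 only bases before the listed start are given, for Omt2a those before the start of the longer RefSeq transcript, which lies 749 bases inside the gene as listed, and for Omt2b those before its listed start.
Oosp1 upstream, chr19:11691151-11691301 (minus strand): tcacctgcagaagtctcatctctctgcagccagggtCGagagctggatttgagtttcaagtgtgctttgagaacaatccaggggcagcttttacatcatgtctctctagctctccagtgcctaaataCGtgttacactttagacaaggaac
Omt2a upstream, chr9:78314049-78314298 (minus strand): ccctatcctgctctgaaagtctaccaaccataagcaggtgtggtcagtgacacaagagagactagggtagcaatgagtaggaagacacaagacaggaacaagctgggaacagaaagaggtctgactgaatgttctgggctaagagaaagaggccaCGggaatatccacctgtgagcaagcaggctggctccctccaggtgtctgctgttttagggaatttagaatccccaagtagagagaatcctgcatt
Omt2b upstream, chr9:78327780-78328029 (plus strand): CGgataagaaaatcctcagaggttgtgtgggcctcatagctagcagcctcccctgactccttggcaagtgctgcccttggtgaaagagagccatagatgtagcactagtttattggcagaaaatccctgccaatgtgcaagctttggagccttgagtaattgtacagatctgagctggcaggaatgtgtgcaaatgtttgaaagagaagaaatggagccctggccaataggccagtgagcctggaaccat
CpGs were few. The 250 bases before the RefSeq start held 4 in Oosp1 and 1 each in Omt2a and Omt2b, against a median of 6 over 32851 promoters of that length, of which 44.4% had as few as Oosp1 and 18.8% as few as the Omt2 genes.

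Letters of known oocyte motifs were counted in these 250 bases on both strands. TAATTG, a form of the element bound by NOBOX, occurred once in Omt2b and in neither of the others (7.17% of promoters hold it), and TAATTA occurred in none of them (4.84%). CANNTG, the E-box core that FIGLA and SOHLH proteins can bind, occurred 5 times in Oosp1, 3 times in Omt2a and 2 times in Omt2b, and 66.2% of promoters hold at least 1. TATAAA was in none (12.4% of promoters). A match is a description of letters only.

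At 60-65 μm the starts of all 3 genes were little methylated. In the 2 kb centred on the listed start, 3 of 48 calls were methylated in Oosp1 (6.25%, Wilson 95% interval 2.15 to 16.8), 7 of 103 in Omt2a (6.80%, 3.33 to 13.4) and 20 of 198 in Omt2b (10.1%, 6.63 to 15.1). The intervals, which cover counting error only, overlap for all 3. These windows reach into the genes: 26 of the 48 calls of Oosp1, 39 of the 103 of Omt2a and 185 of the 198 of Omt2b lay from the start on, so that the start level of Omt2b largely repeats calls of its body. Before the start, 1 of 22, 3 of 64 and 2 of 13 calls were methylated in the same order. Calls came from 11 of 12 CpGs in Oosp1, 10 of 10 in Omt2a and 18 of 18 in Omt2b, with the strands of a CpG counted together. Among 1903 genes with at least 10 RPKM at 60-65 μm the median start was at 3.69%, and the members stood between percentiles 82.9 (Oosp1) and 92.2 (Omt2b). In the upstream sequences printed above, 0 of 6 calls were methylated in Oosp1, 1 of 1 in Omt2a and 2 of 11 in Omt2b, too few for a level.

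Gene bodies differed between Oosp1 and the Omt2 genes. From start to end, 155 of 549 calls were methylated in Oosp1 (28.2%, Wilson 95% interval 24.6 to 32.1), 29 of 241 in Omt2a (12%, 8.51 to 16.7) and 21 of 216 in Omt2b (9.72%, 6.45 to 14.4). The interval of Oosp1 does not overlap the others, which overlap each other. These come from 1 library, so there is no replicate, and calls on the same molecule are not independent. Over the whole library 22.2% of 99039028 calls were methylated, at 3.36 calls per listed position. In the body of Omt2b and the body of Omt2a 27 of 43 and 37 of 55 covered cytosines had no methylated call, and 99 of 173 in Oosp1 had none.

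Among highly expressed genes these bodies were ordinary or low. Against 1913 genes with at least 10 RPKM at 60-65 μm, whose median body level was 27.6% with quartiles of 14.5 and 39.4%, Oosp1 stood at percentile 50.9, Omt2a at 19.8 and Omt2b at 15.9. Length goes with this measure. In the 327 of these genes with bodies under 5 kb the median was 8.09%, among which Omt2a stood at percentile 63.9 and Omt2b at 58.7, and in the 262 genes with bodies of 20 to 30 kb it was 32.8%, among which Oosp1 stood at percentile 38.5.

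Methylation of Oosp1 was not even along its length. With the gene cut into 4 equal parts from its start, part 1 had 6 of 89 calls methylated (6.74%, Wilson 95% interval 3.13 to 13.9), part 2 had 15 of 55 (27.3%, 17.3 to 40.2), part 3 had 49 of 156 (31.4%, 24.6 to 39.1) and part 4 had 85 of 249 (34.1%, 28.5 to 40.2). The interval of part 1 does not overlap those of the others. A stretch 20 to 22 kb after the start held 189 of the 549 calls, with 73 methylated (38.6%), and the rest of the body was at 22.8% (18.7 to 27.4). This stretch lies in part 4 and gave 73 of its 85 methylated calls, so the level of part 4 hangs on it. In the window 22 to 24 kb after the start, which runs past the end of the gene, 0 of 23 calls were methylated. By annotation, 1 of 31 calls in exons was methylated (3.23%, 0.572 to 16.2) and 154 of 518 in introns (29.7%, 26.0 to 33.8).

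The Omt2 genes held fewer calls for such a division. In Omt2a parts 1 to 4 had 1 of 13, 5 of 51, 15 of 138 and 8 of 39 calls methylated, and in Omt2b they had 0 of 22, 12 of 93, 7 of 79 and 2 of 22, so that part 1 was lowest in both, with Wilson intervals that overlapped those of the other parts. Exons of Omt2a had 14 of 145 calls methylated (9.66%) and introns 15 of 96 (15.6%), and in Omt2b these were 10 of 89 (11.2%) and 11 of 127 (8.66%), with overlapping intervals within each gene. The 13232 bases between the genes had 39 of 434 calls methylated (8.99%, Wilson 95% interval 6.64 to 12), so that the pair and the stretch between them had like values. Within the stretches the genes share, where a call may have been given to the wrong copy, Omt2a had 14 of 86 calls methylated (16.3%) and Omt2b 9 of 101 (8.91%), and outside them 15 of 155 (9.68%) and 12 of 115 (10.4%).

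**Figure D4:**
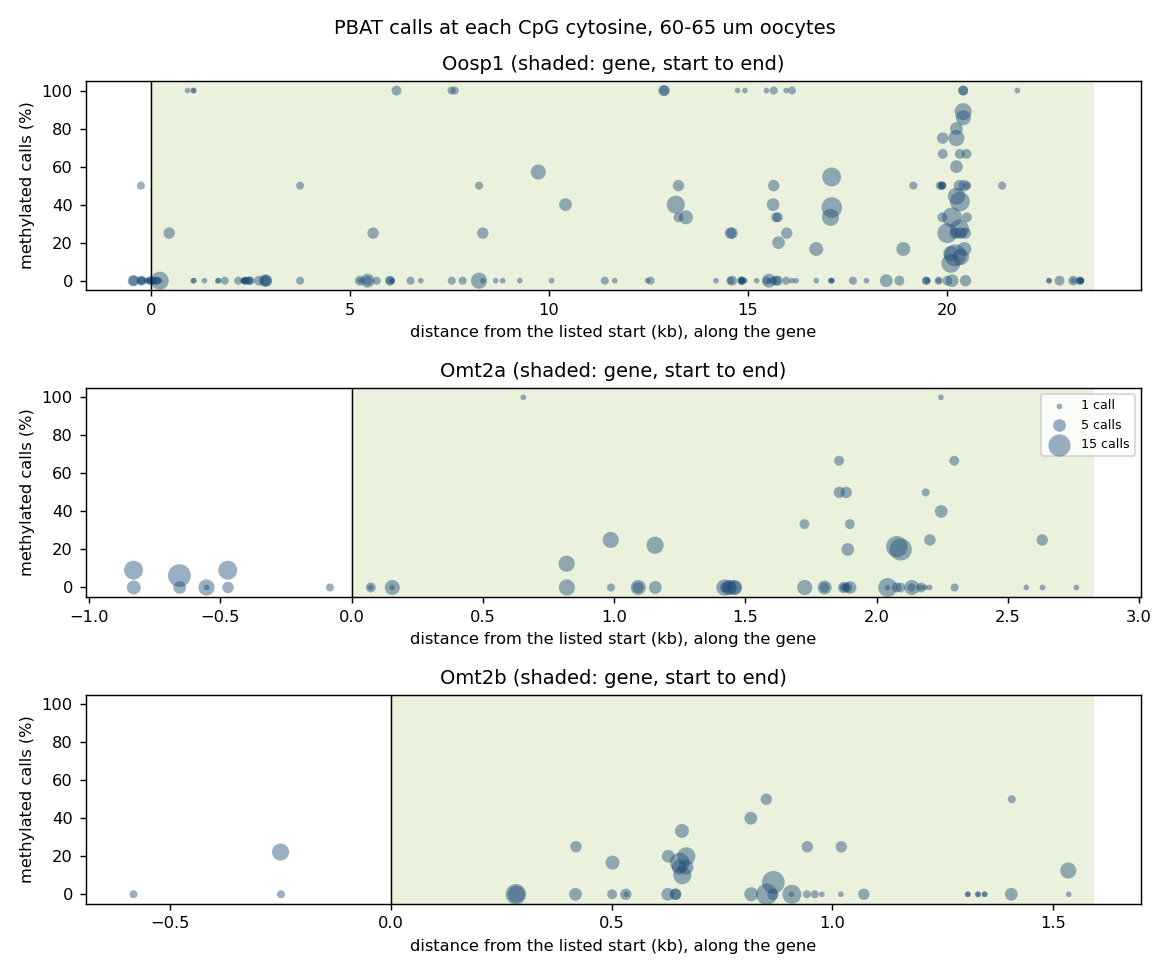
Percent of methylated PBAT calls (vertical axes) at each CpG cytosine against distance from the listed start along the gene in kb (horizontal axes, 1 scale per gene), with point area in proportion to the number of calls and the gene shaded. In Oosp1 points near the start lie mostly at 0% and those 20 to 22 kb into the gene between 0 and 100%, and in Omt2a and Omt2b large points lie at or below 25%.

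Nearby genes spanned a wider range of methylation than the members. Bodies of Oosp2 (37.7%, Wilson 95% interval 30.9 to 45.1) and Oosp3 (31.5%, 25.9 to 37.7) were close to that of Oosp1, with starts at 3.39% and 5.00% of 59 and 20 calls. Ms4a3 and Ms4a2, beyond Oosp2 and at most 0.168 RPKM in RNA, were at 73.8% and 76.2%. Among the neighbours of the Omt2 pair on chromosome 9, bodies of Ooep (4.43%) and Dppa5a (7.41%) had intervals overlapping that of Omt2b, and Gsta4 was at 53.3% (49.8 to 56.8). Over 20 kb before the start of Omt2a, 10 windows of 2 kb had between 2.78 and 14.7% methylation, whereas the 8 windows before Oosp1 with at least 20 calls had between 0 and 65.9%. After the start, windows ran from 5.13 to 60.0% for Omt2a and from 2.86 to 48.5% for Oosp1, in 10 and 8 windows. These windows reach into other genes, except those after the start of Oosp1, which lie within it. The window at 65.9% lies in Oosp3 and that at 60.0% in Gm10639, and the windows before Omt2a take in Omt2b.

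**Figure D5:**
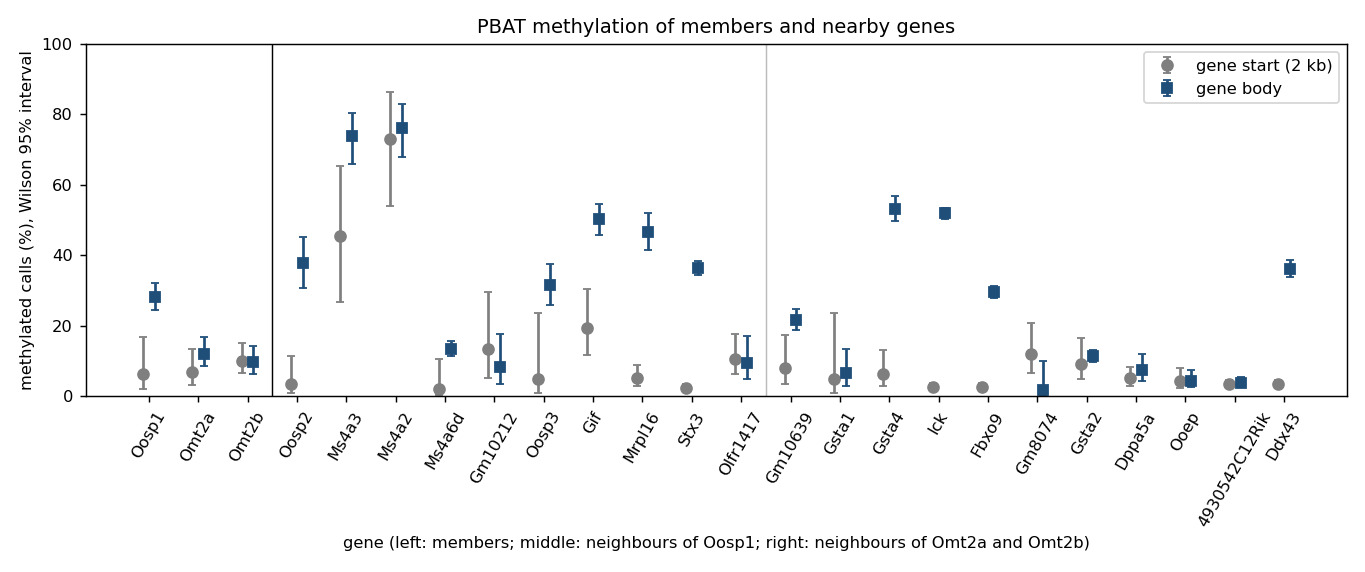
Percent of methylated PBAT calls (vertical axis, bars for the Wilson 95% interval) in the 2 kb around the start (circles) and in the body (squares) of the members, of the 10 neighbours of Oosp1 and of the 11 neighbours of Omt2a and Omt2b. Bodies of Oosp1, Oosp2 and Oosp3 lie at 28.2, 37.7 and 31.5%, Omt2a and Omt2b at 12 and 9.72%, and Ms4a2 is the highest at 76.2%.

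RRBS could not follow these genes through growth. Over the 6 libraries the start windows of all 3 held 0 calls, and the bodies held 5 calls in 50-55 μm library A and 1 call in 60-65 μm library A for Oosp1, and 1 and 2 calls in the same libraries for Omt2a, against 30000113 to 57319823 calls per library in all. A level from fewer than 20 calls was not given, and no onset of methylation can be read for the members from these data.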

How the data were processed

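The authors trimmed RNA reads with Trim Galore 0.2.8 and aligned them to GRCm38 with TopHat 2.0.9, keeping 1 alignment per read. The deposited values are RPKM per reference gene, not further scaled, and the step that made them is not given in the sources used here (the methods name SeqMonk and Cufflinks without tying either to this table). For methylation they used Trim Galore 0.3.5 and Bismark (0.14.0 for RRBS, 0.10.0 for PBAT, which was deduplicated). They deposited, for each CpG cytosine, the percent methylated and the counts of methylated and unmethylated calls, strands apart. 

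RPKM were scaled by a trimmed mean of log ratios (30% of ratios and 5% of levels cut at each end) over genes with at least 0.5 RPKM in 2 of 8 libraries, with factors of 0.944 to 1.06, and log2(RPKM + 0.1) of these 10518 genes was fitted with limma 3.58.1 in R 4.3.3 (variance trend, a mean per size class, Benjamini-Hochberg over all genes tested, threshold 0.05). Fold changes are on that scale. The library totals that the spacing of low RPKM values implies were 99400000 to 198000000 reads, and whether a spliced read counted more than once is not given. Replicate letters were not used as pairs. PBAT calls were pooled over positions with at least 1 call and windows with at least 20, with Wilson 95% intervals. Letters were read from RefSeq tables and GRCm38.p6. Python 3.11.15 with numpy 2.4.6, scipy 1.17.1 and pandas 2.3.3 was used for the rest, with figures by matplotlib 3.10.9, and the procedures were tested on simulated data. Members, lists and tests were chosen with earlier results of these data known. Named genes are the members, the lists, the 5 genes nearest on each side and the 5 most like each member, of which 1 is not reported here. Cell markers were fixed as lists of oocyte, granulosa, stromal and theca, and blood and endothelial genes.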

Additional observations from a re-analysis of the deposited data

How the results depend on the processing

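Over 17 other ways of fitting the RNA values (pseudocounts of 1 and 0.01, no filter and a filter of 5 RPKM, 3 other scalings, the replicate block, no variance trend, and each library left out), 243 of 255 log2 changes of the members stayed on the same side of the threshold and none that was called changed sign. All 27 values for ratios between members did so too. Without a filter the log2 change of Oosp1 from 10-30 to 40-45 μm, 0.77, had a limma adjusted p of 0.0894, in a fit of more genes. With libraries scaled on all genes above 0, Omt2b changed by 0.45 in that step (limma adjusted p = 0.0275). This scaling was tried first and set aside after both results had been seen. Leaving out 1 library moved the log2 change from 10-30 to 40-45 μm between 0.50 and 1.04 for Oosp1, 0.38 and 0.57 for Omt2a and 0.21 and 0.49 for Omt2b, and that from 10-30 to 60-65 μm between 0.33 and 0.61 for Omt2b. That from 40-45 to 60-65 μm moved between 0.08 and 0.62 for Oosp1, 0.07 and 0.28 for Omt2a and 0.02 and 0.22 for Omt2b, and that from 40-45 to 50-55 μm between -0.12 and 0.42, -0.07 and 0.12, and -0.07 and 0.14. From 50-55 to 60-65 μm it moved between 0.01 and 0.41 for Oosp1, 0.05 and 0.25 for Omt2a and 0.05 and 0.14 for Omt2b.

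With the replicate block (letters A and B as a term), Omt2b was called from 10-30 to 40-45 μm (0.37, limma adjusted p = 0.0197) and Oosp1 from 40-45 to 60-65 μm (0.35, adjusted p = 0.0422), and no other call on the members changed. The block called 149 genes higher and 79 lower from 50-55 to 60-65 μm, where the fit without it called 0 and a pseudocount of 1 gave 8 higher. The letters were not taken as pairs, since the correlation of A minus B between classes was 0.60, 0.59 and 0.67 among the 3 smaller classes but -0.23, -0.03 and 0.11 between these and 60-65 μm.

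The number of genes called depended on the fit. From 10-30 to 40-45 μm 1452 genes were higher and 990 lower, with ranges of 585 to 1975 and 237 to 1521 over the alternatives, and the share of calls that were higher was 59.5%, 41.7% with values as deposited and 73.9% with scaling on all genes above 0. From 10-30 to 60-65 μm the ranges were 1485 to 4660 higher and 1282 to 4666 lower around 3330 and 3328. From 40-45 to 50-55 μm they were 0 to 1003 and 0 to 889 around 548 and 373, and from 40-45 to 60-65 μm 665 to 2669 and 619 to 2533 around 1880 and 2056, of which 47.8% were higher, against 58.7% with values as deposited and 38.7% with scaling on all genes above 0.

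For PBAT, 34 of 37 alternative values stayed within the Wilson interval. The mean over positions put the Oosp1 body at 23.3%, the plus strand alone put the Omt2a start at 0.0% of 38 calls, and the other annotated start of Omt2b, 441 bases upstream and added after seeing the data, gave 6.25% of 64 calls. The causes were not tested. Depth limits the start of Oosp1 most, with 48 calls, of which 24 lay at positions with at least 3 calls.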
